A study of Mus musculus with 21 samples.

Results

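Two-layer secondary (TLS) follicles of the mouse ovary were set against PRIMARY follicles on bead arrays, with 3 arrays a stage chosen by their sample titles, 6 of the 21 arrays of a series of 7 stages. TLS follicles measured 100 to 130 µm and were isolated on postnatal day 12, and PRIMARY follicles measured 70 to 90 µm and were isolated on postnatal day 10, so that stage, size and age of the animals cannot be told apart. Both stages came from female mice of CD1, an outbred stock, and neither a treatment nor an engineered allele is named for them. Each sample was RNA of pooled follicles, amplified in 1 round before hybridisation. No label states that a stage's 3 samples were taken from different mice. The p-values therefore reflect only how much samples of the same stage varied, pooled over all 7 stages, which may be technical variation. Multilayer secondary (MLS) follicles of 150 to 180 µm from day 16 and whole ovaries of day 4 (PMD4) serve below as points of reference. TLS repeat 2 and PRIMARY repeat 3 have ovary as their tissue label, where the other arrays of these stages read ovarian follicle. PRIMARY repeat 3 also carries the stage tag of PMD3, whole ovaries of day 3. TLS repeat 2 deviated from its stage, and where a call was lost or made without it, this is stated.

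A follicle is an oocyte wrapped in granulosa cells. Between the primary and the secondary stage the granulosa cells divide from a single layer into several, the oocyte goes on growing, and stromal cells gather outside the basement membrane to form the theca, the layer that brings blood vessels and later makes androgens. The growing oocyte stores messenger RNA and proteins for the egg, and oocyte, granulosa and theca exchange growth factors of the TGF-beta family.

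Levels are given per probe on the log2 scale after background correction and quantile normalization, and a fold change is that of TLS over PRIMARY. Adjusted p-values come from limma with the Benjamini-Hochberg adjustment, and a gene was called where its adjusted p was under 0.05. Of 10112 genes tested 7.25% were called, 3.97% higher and 3.28% lower in TLS. Without TLS repeat 2 the share was 4.33%, 2.75% higher and 1.58% lower. Counts of called members of the gene lists below stand against these shares. Of the calls 54.7% were higher in TLS, against 41.8% with the authors' values and 26.3% with median scaling in place of quantile normalization, which moved the median log2 fold change of all genes to -0.16. Leaving out PRIMARY repeat 1, 2 or 3 left 474, 381 or 415 calls of 733. The fits with and without TLS repeat 2 shared 393 called genes, each of them in the same direction, whereas 340 were called only with all arrays and 45 only without TLS repeat 2. Among called genes the median change was 2.07-fold for the higher and 1.79-fold for the lower ones, and 216 and 110 of them changed at least 2-fold. Over all genes tested the TLS arrays lay above all PRIMARY arrays in 11.3% and below them in 12.2%. Among called genes, which were selected on these same arrays, the stages did not overlap for 387 of the 401 higher genes. The same held for 316 of the 332 lower ones. Between 12639 and 13650 probes were detected on the TLS arrays and between 12888 and 13316 on the PRIMARY arrays. The median SD of a gene over 3 arrays was 0.30 in TLS and 0.16 in PRIMARY on the log2 scale.

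**Figure D1:**
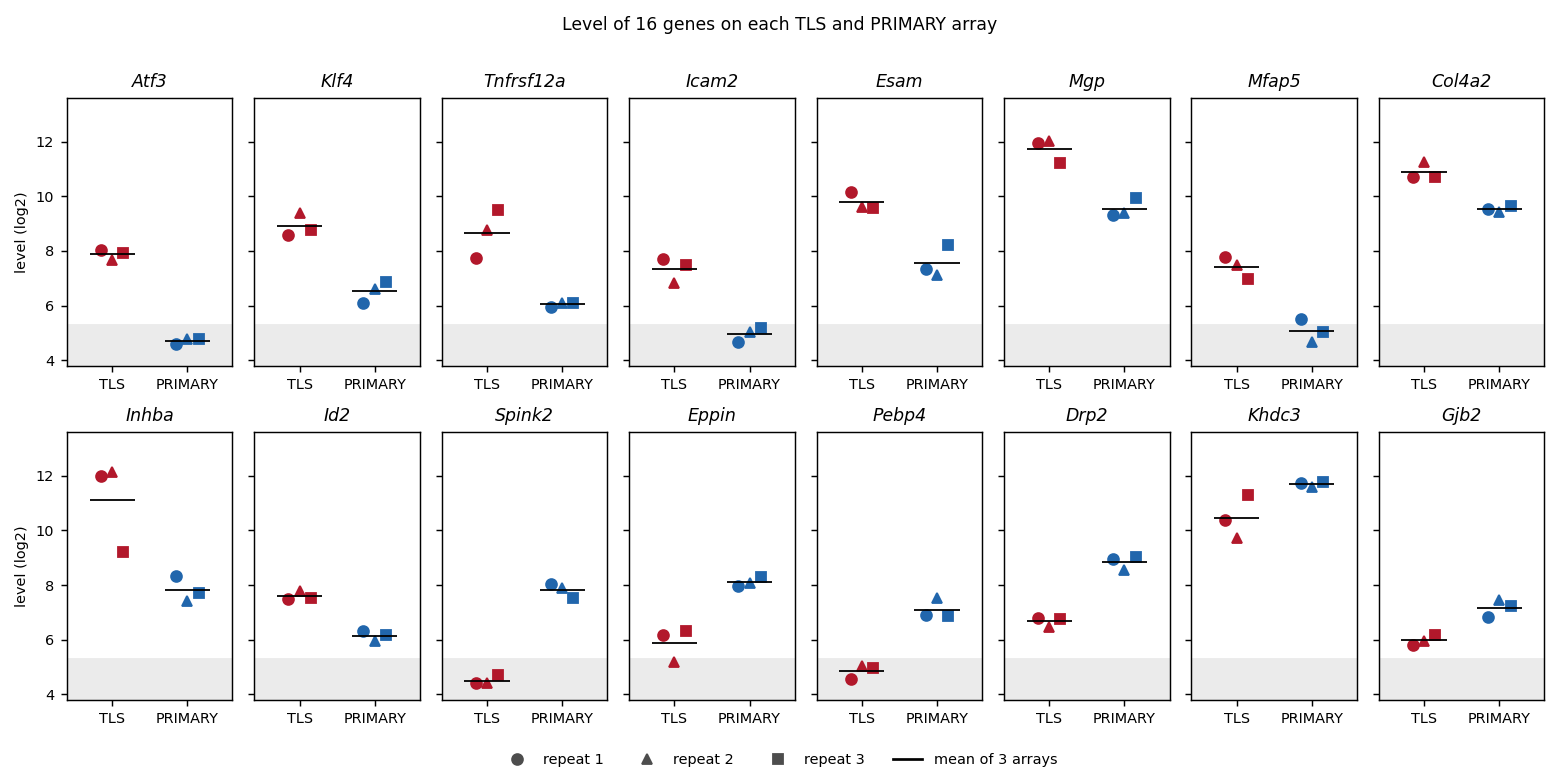
Log2 levels of 16 genes on every array, TLS in red left of PRIMARY in blue; symbols mark repeats 1 to 3, bars are means of 3 arrays, and grey marks levels up to 5.28, the highest of the lowest detected levels of the 6 arrays. All PRIMARY arrays of Atf3 and Icam2 and all TLS arrays of Spink2 and Pebp4 lie in the grey band. The stages overlap in none of the 16 genes, which were picked from genes called on these same arrays. Over all genes tested the TLS arrays lay above all PRIMARY arrays in 11.3% and below them in 12.2%.

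The list of immediate early response genes, which cells switch on within minutes of a stimulus, averaged higher in TLS, though most members were not called. Of 20 tested, 6 were called higher and none lower, with a median log2 fold change of 0.98, against -0.02 over all genes tested. The count was again 6, and the median 1.00, without TLS repeat 2. The TLS arrays lay above all PRIMARY arrays in 14 of the 20, against 11.3% of all genes tested. The list averaged log2 levels of 9.82, 10.00 and 9.95 on the TLS arrays, against 8.83, 8.83 and 8.88 on the PRIMARY arrays, and 9.01 in MLS.

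Atf3, a stress-induced transcription factor, had log2 levels of 8.04, 7.65 and 7.93 in TLS, against 4.59, 4.76 and 4.79 in PRIMARY, where it was not well above background. All 3 TLS arrays were high, and Atf3 was at least 6.58-fold higher (adjusted p = 0.00353, and 0.01 without TLS repeat 2). This bound, like those that follow, divides the brighter stage's mean by a mean over the dimmer stage in which every array counts with its lowest detected level, or with the probe's level if that is higher. It is also given where the dimmer stage detected a gene on some arrays only, and their number is stated. Klf4, a zinc-finger transcription factor, had log2 levels of 8.58, 9.40 and 8.78 in TLS, against 6.09, 6.59 and 6.87 in PRIMARY, and rose 5.3-fold (adjusted p = 0.00617). No array of one stage reached the other in either gene. Klf6 and Klf2, relatives of Klf4, rose 3.49-fold and 3.03-fold.

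Gadd45b, a growth arrest and DNA damage response gene, had log2 levels of 7.45, 7.15 and 9.16 in TLS, against 6.36, 6.51 and 6.23 in PRIMARY. Ier3, which acts on cell survival, had 11.72, 11.52 and 13.11 in TLS, against 10.63, 10.40 and 10.77 in PRIMARY. In both genes TLS repeat 3 stood far above the other TLS arrays, and the log2 fold changes were 1.55 ± 0.44 and 1.51 ± 0.36 (SE). The best known members did not pass. Fos had a log2 fold change of 0.57 (adjusted p = 0.321), Fosb of 2.06 (adjusted p = 0.0657) and Zfp36, which destabilises messenger RNA, of 1.38 (adjusted p = 0.0603). Egr1 had log2 levels of 14.21, 14.10 and 14.13 in TLS, against 14.08, 14.05 and 13.96 in PRIMARY, with a log2 fold change of 0.12. Jun and Myc overlapped between the stages, with log2 fold changes of 0.19 and -0.22.

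Promoter windows, the 250 bases before the start of a gene in RefSeq on GRCm38.p6, were at hand for 15 of the 20 members and for all 6 called ones. The letters TGACG, the core of the cAMP response element that factors of the ATF and CREB families bind, occurred on either strand in 9 of the 15 members and in 3 of the 6 called ones, against 17.8% of 32851 windows of all genes. The full element TGACGTCA, which contains the core, was found for 1 member, Dusp1, and 1.55% of all windows hold it. The AP-1 letters TGANTCA were found for none of the 15, and 6.75% of all windows hold them. Also searched were the CArG box, CC then 6 bases of A or T then GG, and the TATA box TATAAA. The CArG box occurred in 2 members, none of them called, and in 1.47% of all windows. The TATA box occurred in 3 members, 1 of them called, and in 12.4% of all windows. A member counted if any of its windows matched, and Egr2 had 5, so shares of members and of windows are unlike measures. The windows of the 3 called genes with a core are shown because these genes are 3 of the 4 largest rises among the called members. Capitals mark the core TGACG or its reverse complement CGTCA, which starts 7 bases before the start of Atf3, 232 bases before that of Klf4 and 241 bases before that of Klf2. A match describes the letters and is no measurement of binding. Each window reads 5′ to 3′ on the strand of its gene.
Atf3, chr1:191183334-191183583, minus strand: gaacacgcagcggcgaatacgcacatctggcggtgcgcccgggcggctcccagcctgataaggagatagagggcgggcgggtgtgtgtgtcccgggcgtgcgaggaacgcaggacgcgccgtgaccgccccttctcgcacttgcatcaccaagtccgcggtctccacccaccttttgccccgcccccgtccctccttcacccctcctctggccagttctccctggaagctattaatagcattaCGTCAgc
Klf4, chr4:55532476-55532725, minus strand: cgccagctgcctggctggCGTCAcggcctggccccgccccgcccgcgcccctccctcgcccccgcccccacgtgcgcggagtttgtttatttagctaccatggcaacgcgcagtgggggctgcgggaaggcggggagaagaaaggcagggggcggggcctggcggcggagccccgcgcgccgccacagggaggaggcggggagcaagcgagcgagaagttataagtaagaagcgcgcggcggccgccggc
Klf2, chr8:72318812-72319061, plus strand: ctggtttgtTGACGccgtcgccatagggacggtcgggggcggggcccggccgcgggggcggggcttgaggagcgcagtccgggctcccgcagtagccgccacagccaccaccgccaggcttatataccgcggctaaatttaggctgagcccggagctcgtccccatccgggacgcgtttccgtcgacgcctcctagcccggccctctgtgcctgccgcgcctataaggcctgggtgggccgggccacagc

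Genes of blood vessel walls were higher in TLS. Of 13 endothelial genes tested 8 were called higher and none lower, with a median log2 fold change of 0.96, or 0.83 with undetected members at their bound. The count was 8 and the median 1.08 without TLS repeat 2, and with the authors' values, whose normalization is not known, the median was 0.21. Esam, an adhesion molecule of endothelial junctions, had log2 levels of 10.15, 9.61 and 9.57 in TLS, against 7.35, 7.13 and 8.22 in PRIMARY, and rose 4.61-fold (adjusted p = 7.33e-06). Eng, a co-receptor for TGF-beta ligands on endothelium, had 7.40, 7.69 and 6.87 in TLS, against 5.40, 4.73 and 5.61 in PRIMARY, where 2 arrays detected it, and rose at least 3.82-fold (adjusted p = 7.58e-05). Every TLS array was above every PRIMARY array in both genes. Egfl7, secreted by endothelial cells, Plvap, a protein of fenestrated vessels, and Pecam1, an adhesion molecule of vessel walls, rose 2.16-fold, 1.94-fold and 1.78-fold. Vwf, a clotting factor made by endothelium, was detected on all 3 TLS arrays but no PRIMARY array, a difference of at least 1.58-fold (adjusted p = 0.00796). In pooled follicles fewer cells of a type and less RNA per cell cannot be told apart.

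Beyond the list, Icam2, an adhesion molecule of endothelium and leukocytes, had log2 levels of 7.71, 6.81 and 7.47 in TLS, against 4.67, 5.04 and 5.19 in PRIMARY, where no array detected it. It was at least 4.51-fold higher (adjusted p = 7.58e-05). Sox7, a transcription factor of endothelial development, was undetected in PRIMARY as well and at least 2.73-fold higher. Other endothelial genes did not pass. Tek, the receptor of angiopoietins, had a log2 fold change of 0.52 (adjusted p = 0.111), its relative Tie1 of 0.49 (adjusted p = 0.21), and Cdh5, the cadherin of endothelial junctions, of 0.30 (adjusted p = 0.554). Cdh5 was detected on 1 TLS array and on no PRIMARY array. The remaining uncalled members of the list, Sox18 and Ramp2, had log2 fold changes of -0.27 and 0.14. The list averaged log2 levels of 7.95, 7.72 and 7.53 on the TLS arrays, against 6.58, 6.44 and 6.84 on the PRIMARY arrays, and 8.18 in whole ovaries of day 4.

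Extracellular matrix genes gave the most calls of any list by number, beside 10 of 16 and 8 of 13 in the shorter stroma and endothelial lists. Of 30 tested 18 were called higher and none lower, with a median log2 fold change of 1.20, and in 22 the TLS arrays lay above all PRIMARY arrays, where 11.3% of all genes did. The count was 14 and the median 1.02 without TLS repeat 2, and the median was 0.64 with the authors' values. Mgp, a matrix protein that inhibits calcification, had log2 levels of 11.95, 12.02 and 11.21 in TLS, against 9.33, 9.37 and 9.95 in PRIMARY, and rose 4.52-fold (adjusted p = 2.47e-06). The microfibril gene Mfap4 rose 5.49-fold, Mfap5, detected on 1 PRIMARY array, rose at least 4.39-fold, and Eln, which encodes elastin, rose 2.95-fold. Each of the 3 genes was lowest on TLS repeat 3 among the TLS arrays and still above every PRIMARY array there.

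Genes of the basement membrane, the sheet between granulosa and theca, were among them. Col4a2, a chain of its collagen network, had log2 levels of 10.71, 11.26 and 10.71 in TLS, against 9.55, 9.41 and 9.64 in PRIMARY, and rose 2.57-fold (adjusted p = 0.000173). Its partner chain Col4a1 rose 2.59-fold, the linker gene Nid2 2.78-fold and Hspg2, which encodes perlecan, 1.72-fold. The laminin chains were not called, with log2 fold changes of 0.02 for Lama1, 0.31 for Lamb1 and 0.61 for Lama2 (adjusted p = 0.127). Col18a1, another basement membrane collagen, had -0.62 (adjusted p = 0.143).

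The fibrillar collagens Col1a1 and Col3a1 were called with all arrays and not without TLS repeat 2. Col1a1 had log2 levels of 8.67, 10.42 and 7.89 in TLS, against 6.60 to 7.28 in PRIMARY, and rose 4.09-fold (adjusted p = 0.0154). Without TLS repeat 2, its highest array, the difference was 2.49-fold and did not pass (adjusted p = 0.102). Col3a1 had 7.51, 8.21 and 8.56 in TLS, against 6.85, 6.24 and 6.63 in PRIMARY, and its 2.86-fold rise (adjusted p = 0.0219) was 2.75-fold without that array (adjusted p = 0.0756), with repeat 3 the highest TLS array. The small proteoglycans that bind collagen fibrils were called in both fits: Lum rose 3.56-fold, Dcn 2.69-fold and Bgn 2.38-fold.

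Of 15 matrix proteases and their inhibitors 5 were called higher and none lower, where 3.97% of all genes tested were called higher. The median log2 fold change was 0.16. Adamts1, a protease that cuts versican, was detected on 1 PRIMARY array and rose at least 1.97-fold, the gelatinase gene Mmp2 1.99-fold, the serine protease gene Htra1 1.48-fold, and the inhibitor genes Timp3 and Timp2 2.02-fold and 1.76-fold. Without TLS repeat 2 the calls were 2, Adamts1 and Timp3.

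**Figure D2:**
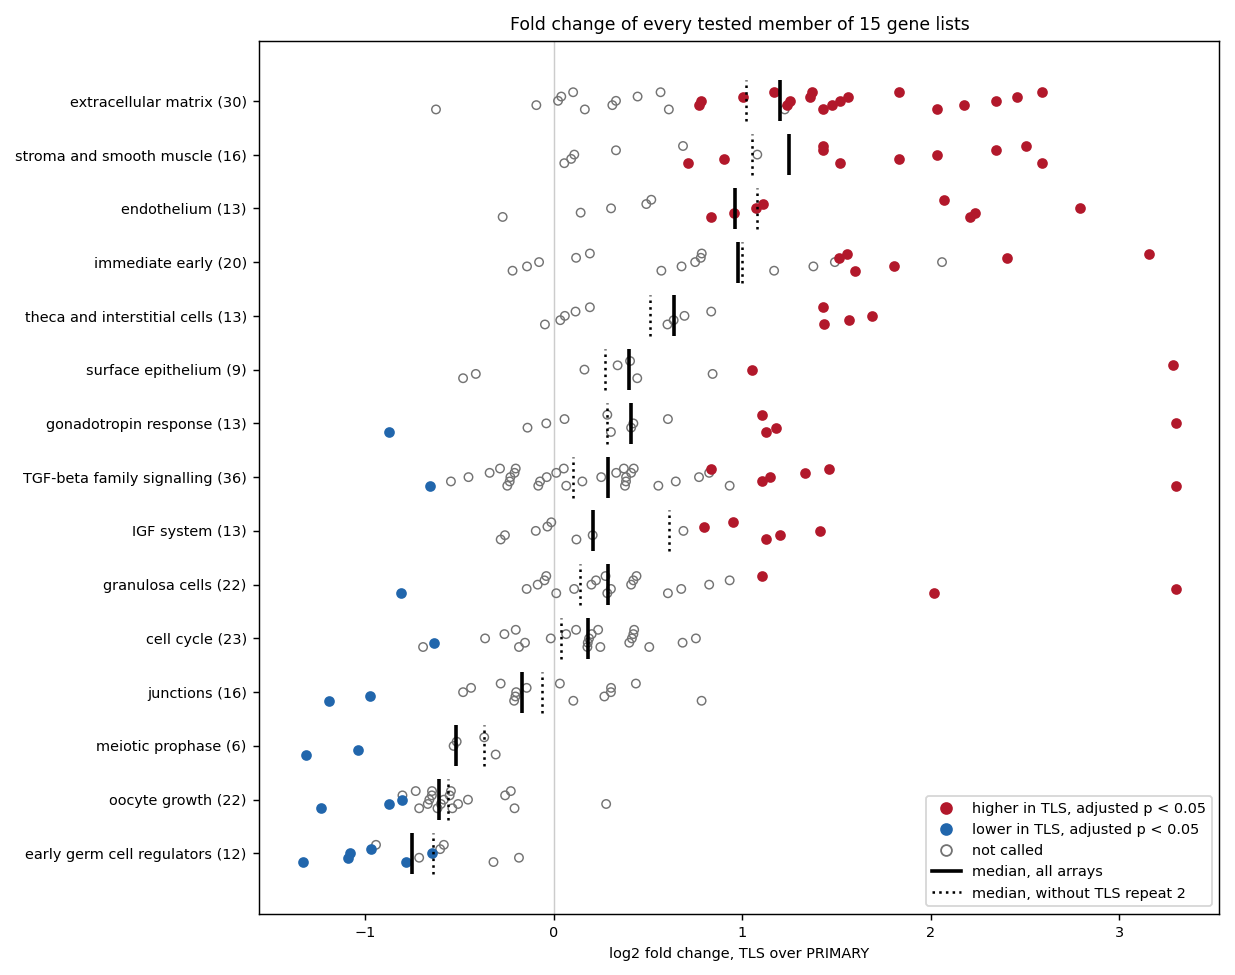
Log2 fold change of TLS over PRIMARY (x axis) for each tested member of 15 gene lists (y axis, number tested in brackets); filled points were called, higher in red and lower in blue, solid bars are list medians with all arrays and dotted bars those without TLS repeat 2. All called members of the extracellular matrix, stroma, endothelium and immediate early lists lie above 0, and all called members of the oocyte growth and early germ cell lists lie below 0.

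Of 16 genes of stroma and smooth muscle 10 were called higher and none lower, with a median log2 fold change of 1.25. The count was 6 and the median 1.05 without TLS repeat 2, and the median was 0.65 with the authors' values. Of the 10 called genes 6 also stand in the matrix list. Pdgfra, a receptor of mesenchymal cells, rose 1.87-fold (adjusted p = 0.031), a call lost without TLS repeat 2 (1.62-fold, adjusted p = 0.159). The contractile genes of smooth muscle were not called: Acta2 had a log2 fold change of 0.69 (adjusted p = 0.121), Myh11 of 0.06, Des of 0.11 and Tagln of 0.09. Summed on the linear scale above the offset of 16, the list came to 22992, 23168 and 14975 on the TLS arrays, against 11279, 8019 and 7572 on the PRIMARY arrays, with TLS repeat 3 nearest to PRIMARY.

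Among 13 genes of theca and interstitial cells 4 were called higher and none lower, where 3.97% of all genes tested were called higher. The median log2 fold change was 0.64. The count was 3 and the median 0.51 without TLS repeat 2, and the median was 0.18 with the authors' values. Insl3, a peptide hormone of theca cells, had log2 levels of 6.56, 5.63 and 6.16 in TLS, against 4.86, 4.51 and 4.67 in PRIMARY, where no array detected it, a rise of at least 1.95-fold (adjusted p = 0.00544). Cyp11a1, which makes pregnenolone from cholesterol, had 7.69, 6.59 and 6.25 in TLS, against 5.31, 4.93 and 5.59 in PRIMARY, where 2 arrays detected it, and rose at least 2.82-fold (adjusted p = 0.00207). Both genes separated the stages on every array. Cyp17a1, the enzyme of androgen synthesis, had 10.97, 9.60 and 9.68 in TLS, against 9.26, 6.99 and 8.94 in PRIMARY, where repeat 2 stood far below the others. Its 3.22-fold rise passed with all arrays (adjusted p = 0.0456), and without TLS repeat 2 it was 3.8-fold and did not pass (adjusted p = 0.0577). Star, which brings cholesterol into mitochondria, was undetected on all 6 arrays. Hsd3b1, the enzyme after Cyp11a1, had a log2 fold change of 0.60 (adjusted p = 0.101).

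Markers of cells outside the follicle were measured beside these groups. The median log2 fold change of 9 genes of the ovarian surface epithelium was 0.40, and 2 were called higher, against 3.97% of all genes tested. They were the uroplakins Upk3b and Upk1b, called also without TLS repeat 2. Upk3b had log2 levels of 8.29, 8.71 and 7.83 in TLS, against 4.72, 4.79 and 5.46 in PRIMARY, where 1 array detected it, a rise of at least 8.2-fold (adjusted p = 1.97e-07). All TLS arrays of Upk3b were far above all PRIMARY arrays, and it was among the 15 largest rises. Upk1b was undetected in PRIMARY and at least 1.2-fold higher. Keratins of that epithelium were not called, with log2 fold changes of 0.40 for Krt8, 0.44 for Krt18 and 0.84 for Krt19. Leukocyte markers stood near background: of 8 tested 7 were undetected on every PRIMARY array and 3 on every TLS array. Of these 8, the complement gene C1qc was called (at least 1.01-fold higher), and the median log2 fold change was 0.33, or 0.00 with undetected members at their bound. Of 4 erythroid genes none was called by limma on all arrays, with 1 at an unadjusted p under 0.05, and the haemoglobin gene Hbb-b2 passed without TLS repeat 2, at 3.01-fold or more, with 2 PRIMARY arrays detecting it (adjusted p = 0.0113).

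The leukocyte list averaged log2 levels of 5.12 on TLS repeat 2, labelled ovary, and 5.31 and 5.17 on the other TLS arrays, against 4.97 on PRIMARY repeat 3, labelled ovary, and 4.83 and 4.90 on the other PRIMARY arrays. Whole ovaries of day 4 averaged 6.88. Summed linear levels of the leukocyte list ran from 184 to 285 in TLS and from 148 to 192 in PRIMARY, those of the endothelial list from 4586 to 6255 in TLS and from 2618 to 3713 in PRIMARY, and those of the surface epithelium list from 1813 to 2344 in TLS and from 1520 to 1791 in PRIMARY. The part of such cells in the rise of vessel, stroma and matrix genes was not tested.

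Granulosa genes were called in both directions. Of 22 tested 3 were called higher and 1 lower, where 3.97% and 3.28% of all genes tested were. The median log2 fold change was 0.29, and without TLS repeat 2 the calls were 2 higher and the median 0.14. Nap1l5, an imprinted gene of the nucleosome assembly family, had log2 levels of 9.16, 10.52 and 8.54 in TLS, against 7.54, 7.06 and 7.58 in PRIMARY, and rose 4.05-fold (adjusted p = 0.00167). Fst, which encodes follistatin, the binding protein of activin, had 11.48, 12.28 and 10.67 in TLS, against 10.60, 10.32 and 10.21 in PRIMARY. TLS repeat 3 lay next to the PRIMARY arrays, and the 2.15-fold rise (adjusted p = 0.0188) was lost without TLS repeat 2 (1.62-fold, adjusted p = 0.119). Bex2 fell to log2 levels of 10.42, 10.15 and 10.54 in TLS, against 11.28, 11.24 and 11.04 in PRIMARY.

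TLS repeat 2 was far above both other TLS arrays in several granulosa genes. Amh, the anti-Müllerian hormone of growing follicles, had log2 levels of 10.04, 12.55 and 10.88 in TLS, against 10.37, 10.46 and 10.18 in PRIMARY. Foxl2, the transcription factor that keeps granulosa identity, had 7.06, 9.10 and 6.40 in TLS, against 7.64, 7.22 and 6.89 in PRIMARY. Ihh, a hedgehog ligand sent to the theca, had 8.93, 10.34 and 8.28 in TLS, against 8.71, 8.56 and 9.00 in PRIMARY. Apart from repeat 2, the TLS arrays of Foxl2 and Ihh lay within or below the PRIMARY range. None of the 3 genes passed, with adjusted p-values of 0.374, 0.809 and 0.53. The receptor genes Fshr and Amhr2 had log2 fold changes of -0.04 and 0.01.

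Inhba encodes the beta-A subunit of activin and inhibin, which follicle-stimulating hormone induces in granulosa cells. Its log2 levels were 12.00, 12.12 and 9.21 in TLS, against 8.32, 7.42 and 7.69 in PRIMARY, so that TLS repeat 3 lay nearest to PRIMARY by far. The companion subunits Inha and Inhbb were also highest on TLS repeats 1 and 2 and were not called, with log2 fold changes of 0.41 (adjusted p = 0.227) and 0.93 (adjusted p = 0.133). Of 13 gonadotropin response genes 4 were called higher and 1 lower, with a median log2 fold change of 0.41, and 3 and 1 without TLS repeat 2. Sgk1, a kinase that the hormone induces, had log2 levels of 11.84, 11.44 and 12.39 in TLS, against 10.95, 10.60 and 10.58 in PRIMARY, and rose 2.26-fold (adjusted p = 0.0155). Akap12, an anchor of protein kinase A, was 1.83-fold lower.

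Among 36 genes of TGF-beta family signalling 6 were called higher and 1 lower, where 3.97% and 3.28% of all genes tested were. The median log2 fold change was 0.29 (0.14 with the authors' values). Without TLS repeat 2 the calls were 4 higher and none lower. Of the ligands Tgfb3 rose 1.78-fold, a call lost without TLS repeat 2 (1.52-fold, adjusted p = 0.207), and Bmp4 had a log2 fold change of 0.77 (adjusted p = 0.156). Of the receptors Tgfbr2, which binds TGF-beta itself, had log2 levels of 9.82, 10.01 and 9.12 in TLS, against 8.62, 8.17 and 8.18 in PRIMARY, and rose 2.52-fold (adjusted p = 0.00148). Acvr2b, a receptor of activins, was 1.58-fold lower (adjusted p = 0.0309), and 1.55-fold lower without TLS repeat 2 (adjusted p = 0.0907). Fstl1, a secreted relative of follistatin, rose 2.22-fold. Id2, a transcription regulator that bone morphogenetic proteins induce, had log2 levels of 7.48, 7.79 and 7.54 in TLS, against 6.30, 5.95 and 6.18 in PRIMARY, with all TLS arrays above all PRIMARY arrays. It rose 2.75-fold (adjusted p = 1.02e-05, and 9.09e-05 without TLS repeat 2). Its relatives Id1 and Id3 were not called, with log2 fold changes of 0.38 and 0.25.

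Of 13 genes of the insulin-like growth factor system 5 were called higher and none lower, where 3.97% of all genes tested were called higher. The median log2 fold change was 0.21. Leaving out TLS repeat 2 gave 6 and a median of 0.61, and median scaling a median of -0.01. The ligand Igf1, made by granulosa cells of growing follicles in the mouse, had log2 levels of 9.35, 9.44 and 8.54 in TLS, against 8.04, 8.05 and 7.86 in PRIMARY, and rose 2.18-fold (adjusted p = 0.000902). The second ligand, Igf2, rose 1.94-fold. Of the binding proteins Igfbp6 rose 2.66-fold (adjusted p = 0.000188) and Igfbp4 2.3-fold, and Igfbp3, undetected in PRIMARY, was at least 1.31-fold higher. The receptor genes Igf1r and Igf2r had log2 fold changes of -0.03 and -0.01.

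In the hedgehog pathway 1 of 7 genes was called, against 7.25% of all genes tested, and 1 call in so short a list says little about it. The called gene was the ligand Shh, which stood close to background with log2 levels of 4.64, 5.38 and 4.68 in TLS, against 5.66, 5.60 and 5.71 in PRIMARY. It was at least 1.33-fold lower, with 1 TLS array detecting it (adjusted p = 0.00804). The target gene Hhip had a log2 fold change of 0.84 (adjusted p = 0.111). In the Notch pathway 1 of 13 was called, near the share of all genes tested. It was the endothelial receptor gene Notch4, which rose 2.07-fold although the stages overlapped.

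Several of the 15 largest rises fell outside these lists. Ccl21c, a chemokine that attracts leukocytes, had log2 levels of 8.40, 8.46 and 6.54 in TLS, against 4.70, 4.91 and 5.35 in PRIMARY, where 1 array detected it, and rose at least 6.07-fold (adjusted p = 0.000796). Ccl21b, a near-identical copy whose probe may catch the same RNA, was undetected in PRIMARY and rose at least 4.52-fold (adjusted p = 0.000495). Tnfrsf12a, the receptor of the cytokine TWEAK, had 7.74, 8.76 and 9.51 in TLS, against 5.96, 6.09 and 6.10 in PRIMARY, and rose 6.14-fold (adjusted p = 0.000155). All 3 genes kept the stages apart. Members of the lists were also of the 15, the chemokine Cxcl12 of the stroma list, the matrix proteoglycan Ogn of the stroma and matrix lists and the VEGF receptor Flt1 of the endothelial list. Cxcl12 rose 5.67-fold, Ogn 6.02-fold and Flt1, detected on 2 PRIMARY arrays, at least 6.54-fold. Slc14a1, a urea transporter, rose at least 3.95-fold, with PRIMARY repeat 1 the array of that stage that detected it.

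The top of the ranking came with split PRIMARY arrays. Pdrg1, a gene that DNA damage and p53 regulate, had log2 levels of 9.56, 9.05 and 8.58 in TLS, against 4.48, 8.09 and 4.47 in PRIMARY. Rpusd4, a mitochondrial pseudouridine synthase, had 9.72, 10.34 and 9.59 in TLS, against 8.99, 5.08 and 5.50 in PRIMARY. Csrp1, a LIM-domain protein of the actin cytoskeleton, had 9.66, 8.23 and 8.11 in TLS, against 4.86, 7.33 and 4.49 in PRIMARY. In each of them 1 PRIMARY array approached the TLS level and the other two were more than 3 units lower than every TLS array. Both low arrays were below detection for Pdrg1 and Csrp1, and 1 of them for Rpusd4. The rises were at least 7.58-fold for Pdrg1, 10.1-fold for Rpusd4 and 6.86-fold for Csrp1.

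Oocyte genes were mostly lower in level. Of 22 oocyte growth genes 3 were called lower and none higher, where 3.28% of all genes tested were called lower. The median log2 fold change was -0.61, and in 16 the TLS arrays lay below all PRIMARY arrays, against 12.2% of all genes tested. Without TLS repeat 2 limma called none of the 22, with 13 at an unadjusted p under 0.05 and a median of -0.56. Khdc3, a member of the subcortical maternal complex that early embryos need, had log2 levels of 10.39, 9.72 and 11.29 in TLS, against 11.72, 11.60 and 11.77 in PRIMARY, and was 2.35-fold lower (adjusted p = 0.0156). Dppa3, which protects methylation of the maternal genome after fertilisation, was 1.83-fold lower, and Btg4, an adaptor for the decay of maternal messenger RNA, 1.75-fold lower. Repeat 3 was the TLS array nearest to PRIMARY in these 3 genes. The list averaged log2 levels of 11.51, 11.53 and 11.89 on the TLS arrays, against 12.22, 12.21 and 12.21 on the PRIMARY arrays. On the same arrays the granulosa list averaged 10.56, 11.08 and 10.26 in TLS, against 10.26, 10.03 and 10.10 in PRIMARY, and the part of a larger share of granulosa RNA in the oocyte genes was not tested.

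Of 12 regulators of early germ cells 6 were called lower and none higher, with a median log2 fold change of -0.75. The count was 1 and the median -0.64 without TLS repeat 2, and the median was -0.39 with the authors' values. Figla, the transcription factor that turns on the zona genes, had log2 levels of 7.11, 7.31 and 8.16 in TLS, against 8.33, 8.69 and 8.47 in PRIMARY, and was 1.96-fold lower (adjusted p = 0.0117), and 1.81-fold lower without TLS repeat 2 (adjusted p = 0.0585). Ybx2, which binds stored messenger RNA, had 9.88, 8.31 and 10.26 in TLS, against 10.89, 10.77 and 10.78 in PRIMARY, and was 2.51-fold lower. Without TLS repeat 2 it was 1.67-fold lower and not called (adjusted p = 0.144). TLS repeat 2 was the lowest array of Ybx2. Dppa5a, an RNA-binding protein of germ cells and the gene called in both fits, had 12.78, 12.27 and 13.21 in TLS, against 13.75, 13.86 and 13.89 in PRIMARY, and was 2.12-fold lower (adjusted p = 0.00565). Tbpl2, the oocyte form of the TATA-binding protein, was detected on 1 TLS array and at least 1.89-fold lower, Elavl2, an RNA-binding protein, was 1.72-fold lower, and Pou5f1, the pluripotency factor, 1.56-fold lower. Sohlh1, Nobox and Lhx8, transcription factors of the young oocyte, were not called, with log2 fold changes of -0.94, -0.71 and -0.58.

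Of 6 meiotic prophase genes 2 were called lower, against 3.28% of all genes tested, with a median log2 fold change of -0.52. Without TLS repeat 2 the count was 1 and the median -0.37. Smc1b, a cohesin subunit of meiosis, had log2 levels of 6.62, 6.64 and 7.06 in TLS, against 8.10, 8.01 and 8.15 in PRIMARY, and was 2.48-fold lower (adjusted p = 0.000111, and 0.000936 without TLS repeat 2). Stag3, another such subunit, had log2 levels of 6.02, 5.40 and 5.47 in TLS, against 6.68, 6.47 and 6.85 in PRIMARY, and was 2.06-fold lower (adjusted p = 0.0124), and 1.9-fold lower without TLS repeat 2 (adjusted p = 0.0622). Exd1, which acts in the piRNA pathway of germ cells and is in no list, had 5.80, 4.80 and 5.01 in TLS, against 7.14, 7.17 and 7.83 in PRIMARY, and was at least 4.2-fold lower, with 1 TLS array detecting it (adjusted p = 0.00033). Esrp1, an epithelial splicing regulator, had 11.57, 10.94 and 11.84 in TLS, against 12.76, 12.89 and 13.00 in PRIMARY, a 2.7-fold difference (adjusted p = 0.00237). In all 4 genes every TLS array was below every PRIMARY array.

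The largest falls were mostly in genes outside these groups. Spink2, a serine protease inhibitor of the Kazal type known from the testis, had log2 levels of 4.40, 4.41 and 4.69 in TLS, where no array detected it, against 8.05, 7.90 and 7.53 in PRIMARY. It was at least 6.47-fold lower (adjusted p = 6.78e-06, and 5.65e-05 without TLS repeat 2). Eppin, another protease inhibitor known from the male tract, had 6.16, 5.17 and 6.30 in TLS, against 7.96, 8.08 and 8.30 in PRIMARY, and was 4.71-fold lower (adjusted p = 5.65e-06). Pebp4, of the phosphatidylethanolamine-binding family, was undetected in TLS, a fall of at least 3.88-fold (adjusted p = 1.02e-05). All 3 PRIMARY arrays were high in each of these genes.

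Further falls were found in several gene classes. The transcription factor Prox1, detected on 2 TLS arrays, was at least 2.98-fold lower and the transcription factor Gsc 2.97-fold lower, and in both TLS repeat 2 was the lowest array and TLS repeat 3 the nearest to PRIMARY. The zinc-finger gene Zfp345, detected on 1 TLS array, was at least 2.48-fold lower, and Cpne9, a copine that binds membranes with calcium, 2.87-fold lower. Slc23a3, a transporter relative, was 4.34-fold lower although the stages overlapped, with 7.54, 7.09 and 9.17 in TLS, against 10.44, 10.84 and 8.86 in PRIMARY. Of the 15 largest falls, Drp2, a relative of dystrophin, was 4.52-fold and Dnajc11 3.21-fold lower. Taf6 and Crtac1, each detected on 2 TLS arrays, were at least 3.04-fold and 2.34-fold lower, and Slc10a6, detected on 1, at least 2.26-fold. Lcp1, an actin-bundling protein, was detected on all PRIMARY arrays but no TLS array, a fall of at least 1.77-fold (adjusted p = 0.000627). Cort, a neuropeptide detected in the same pattern, was at least 1.48-fold lower (adjusted p = 0.0257), a call lost without TLS repeat 2 (adjusted p = 0.0896). Emb and Mepe, also of that pattern, missed the threshold (adjusted p = 0.0571 and 0.0565). In all, 64 genes were detected on every TLS array and on no PRIMARY array, 40 of them called, and 19 the other way round, 11 of them called. Of the 64, the neurotrophin receptor Ntrk2 and the kinase Pim1 were at least 2.49-fold and 2.44-fold higher.

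Of 16 junction genes 2 were called lower and none higher, where 3.28% of all genes tested were called lower. The median log2 fold change was -0.17. Gjb2, a connexin of gap junctions, had log2 levels of 5.81, 5.96 and 6.17 in TLS, against 6.82, 7.46 and 7.24 in PRIMARY, and was 2.29-fold lower (adjusted p = 0.00106). Cldn11, a claudin of tight junctions, was 1.96-fold lower with overlapping stages and 1.83-fold lower without TLS repeat 2, where it was not called (adjusted p = 0.125). Gja1 and Gja4, the connexins of granulosa cells and oocyte, were not called, with log2 fold changes of 0.30 and -0.28.

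In the cell cycle list 1 of 23 genes was called, against 7.25% of all genes tested, and the median log2 fold change was 0.18. The called gene was Ccne2, a cyclin of the start of S phase, which was 1.55-fold lower (adjusted p = 0.0469). Without TLS repeat 2 it was 1.48-fold lower and not called (adjusted p = 0.153). Ccnd2, the cyclin of granulosa division, had log2 levels of 9.95, 12.21 and 9.89 in TLS, against 9.88, 10.33 and 10.57 in PRIMARY, and was high on TLS repeat 2 alone. Lists of energy and biosynthetic metabolism gave almost no calls, and at the 7.25% called of all genes tested lists of their size would hold few. Of 16 glycolysis genes limma called none, with 5 at an unadjusted p under 0.05, and of 35 genes of oxidative phosphorylation none, with 5 at an unadjusted p under 0.05. Of 22 genes of pyruvate dehydrogenase and the TCA cycle limma called none, with 2 at an unadjusted p under 0.05, although Idh2, a mitochondrial isocitrate dehydrogenase, passed without TLS repeat 2 (adjusted p = 0.0205). Of the 23 fatty acid genes Scd1, a desaturase undetected in PRIMARY, was at least 1.28-fold higher. Of 17 amino acid transporters Slc38a5 and Slc7a6 rose 1.82-fold and 1.69-fold, and neither was called without TLS repeat 2 (1.81-fold and 1.61-fold, adjusted p = 0.0579 and 0.117). Slc6a9, a glycine transporter of the oocyte, was 1.73-fold lower (adjusted p = 0.00557). The 26 genes of cytosolic ribosomal proteins had a median log2 fold change of 0.15, with none called by limma and 3 at an unadjusted p under 0.05.

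A contrast of TLS with the mean of PRIMARY and MLS asked which genes lay off the midpoint of these neighbours. It called 0.455% of genes, 31 higher and 15 lower, and 0.227% without TLS repeat 2, with 16 genes called both times. Of the 46 genes called, 39 had a TLS mean above or below both neighbours, and in 7, Upk3b, Id2, Eppin and Ogn among them, it lay between. Csrp1 averaged 8.67 ± 0.86 in TLS, against 4.87 ± 0.26 in MLS and 5.56 ± 1.55 in PRIMARY (log2 level, SD, n = 3 arrays). Pebp4 and Spink2 were low in TLS and averaged 8.34 and 6.88 in MLS. Gadd45a, which halts the cell cycle after DNA damage, had log2 levels of 9.77, 10.93 and 11.01 in TLS, against 8.73, 8.56 and 8.70 in PRIMARY, and averaged 9.42 in MLS. Its log2 difference from the mean of both was 1.53 (adjusted p = 0.000488). Ccng2, a cyclin that goes with cycle arrest, had 6.91, 7.24 and 7.49 in TLS, against 5.48, 4.99 and 5.05 in PRIMARY, and averaged 5.57 in MLS (adjusted p = 0.00276). All TLS arrays of both genes were above all PRIMARY arrays.

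Ier3 and Tnfrsf12a averaged 12.11 and 8.67 in TLS, against 10.51 and 6.98 in MLS (adjusted p = 0.0254 and 0.00223). Pnliprp2, a relative of pancreatic lipase, averaged 8.17 in TLS, against 5.79 in MLS and 6.45 in PRIMARY. Of the other 8 genes called both times, Upk3b, Ntrk2 and Pim1 are described above, Pou3f1 and Olfml2b were higher in TLS than in both neighbours, Bpifb4 lay between them, nearer to MLS, and Stx17 and Chmp1a were lower than both. Chmp1a was detected on 1 PRIMARY array and no TLS array. These 5 names were chosen after their values were seen. Pou3f1, a POU-domain transcription factor, averaged 5.98 in TLS, against 4.65 in MLS and 4.66 in PRIMARY.

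**Figure D3:**
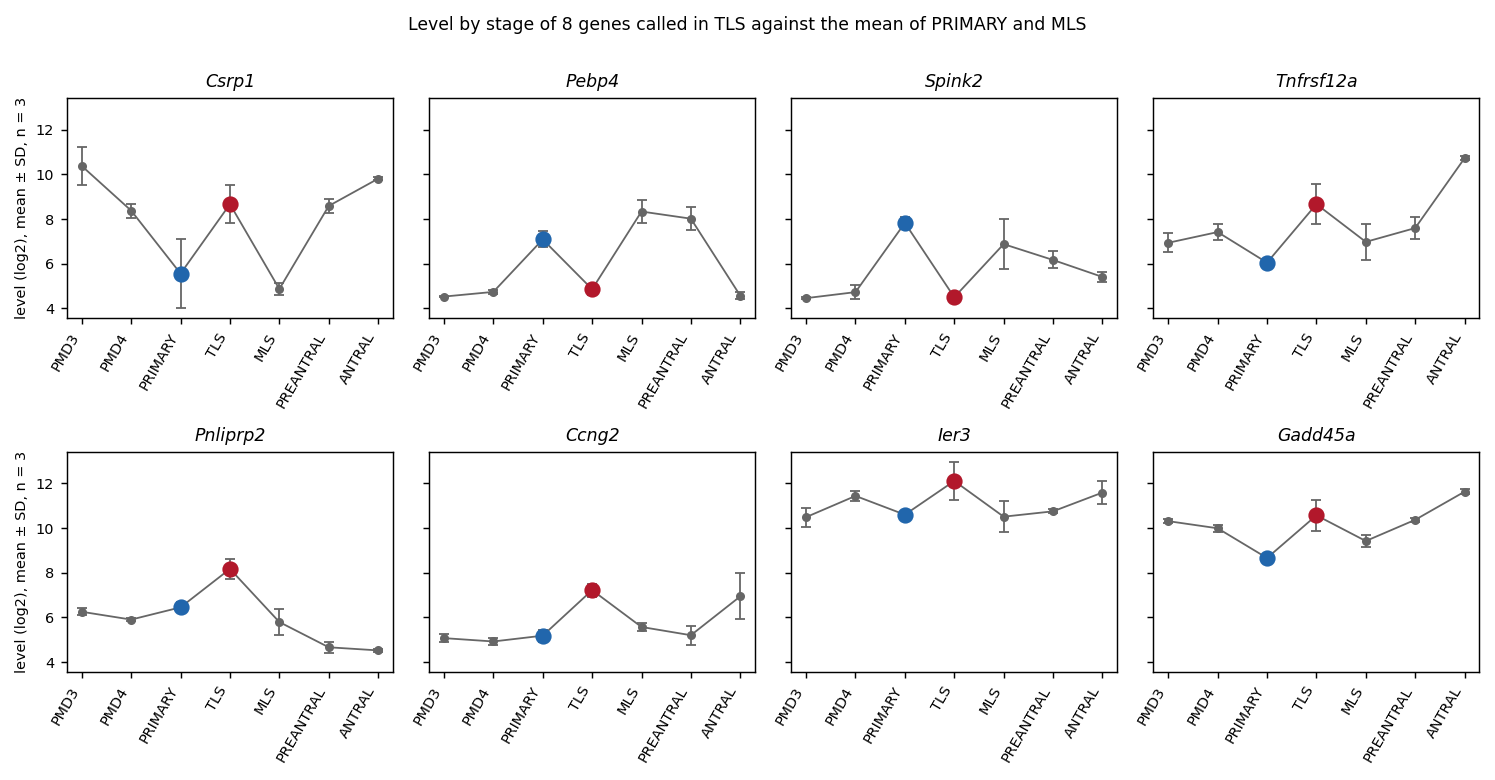
Log2 level by stage (mean of 3 arrays, bars are SD) of the 8 genes with the largest difference of TLS from the mean of PRIMARY and MLS that passed with and without TLS repeat 2; TLS is red and PRIMARY blue, and stages run from day 3 ovaries to antral follicles. Pebp4 and Spink2 dip in TLS, to 4.86 and 4.50, and the other 6 genes stand higher in TLS than in both neighbours.

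The TLS arrays differed among themselves more than the PRIMARY arrays did. TLS repeat 2 lay at least 2-fold from both other TLS arrays in 514 genes, against 125 for TLS repeat 1 and 122 for TLS repeat 3, and the PRIMARY arrays did so in 12 to 45 genes. TLS repeat 3 was the TLS array nearest to PRIMARY in 243 of the 401 genes called higher and in 217 of the 332 called lower. MLS against PRIMARY called 17.6% of genes, and over the 763 of them with at least a 2-fold difference the median gene stood 70.9% of the way from PRIMARY to MLS on TLS repeat 1, 64.9% on repeat 2 and 41.6% on repeat 3.

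**Figure D4:**
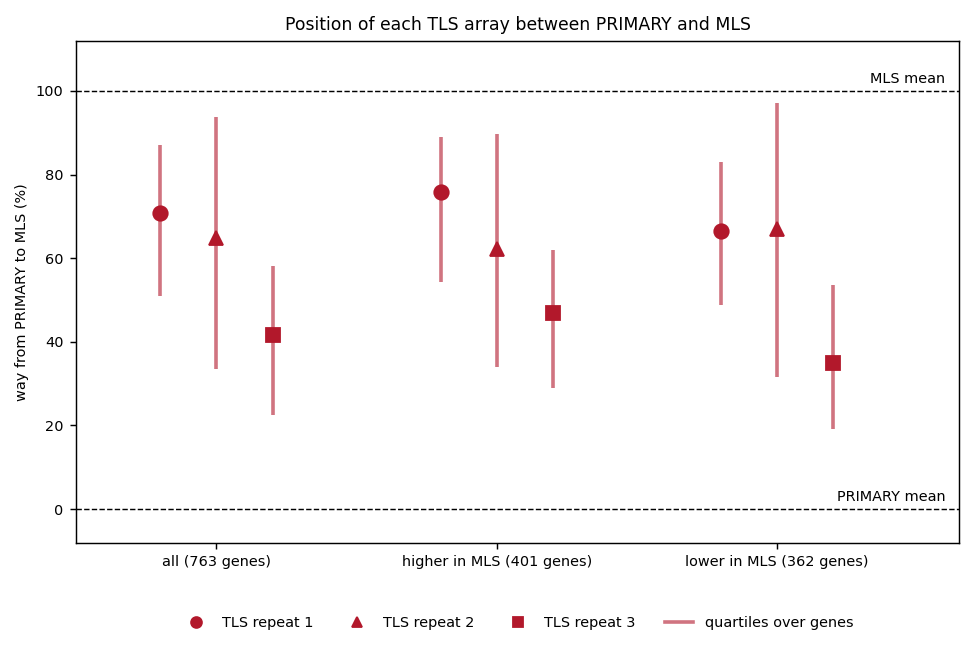
Position of each TLS array (y axis, %) between the PRIMARY mean (0%) and the MLS mean (100%) over genes that differed by at least 2-fold between MLS and PRIMARY; symbols are medians over genes and bars run between the quartiles. Repeat 3 lies at 46.8% for genes higher in MLS and at 35% for genes lower in MLS, below repeats 1 and 2 in both sets.

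The largest SD over the TLS arrays, 2.01 on the log2 scale, was that of Enpp5, a phosphodiesterase relative, with log2 levels of 5.60, 8.97 and 9.20 in TLS, against 8.33, 7.97 and 6.12 in PRIMARY. In Purb, Bcl9l, Phlda1, Ap2a1, Nfib and Foxl2 TLS repeat 2 stood high. Phlda1, a regulator of growth factor signalling, had 9.35, 12.30 and 10.30 in TLS, against 9.27, 9.12 and 9.53 in PRIMARY. Nfib, a transcription factor, had 8.60 and 8.34 on TLS repeats 1 and 3 and was highest on repeat 2, against 7.72, 7.47 and 7.47 in PRIMARY, and its 3.39-fold rise (adjusted p = 0.0468) was 1.89-fold without TLS repeat 2 (adjusted p = 0.272).

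Leaving TLS repeat 2 out ended some calls and made others. Sspn, a membrane protein of the dystrophin complex, had log2 levels of 9.96, 9.88 and 9.28 in TLS, against 4.41, 8.25 and 7.36 in PRIMARY. With 2 PRIMARY arrays detecting it, its rise was at least 6.96-fold with all arrays (adjusted p = 0.0388), and the difference at least 6.56-fold without TLS repeat 2 (adjusted p = 0.108). Cyp4f15, a cytochrome P450, and Pga5, a pepsinogen, were low on TLS repeats 1 and 2 and within the PRIMARY range on repeat 3, and both calls were lost. Aoc3, an amine oxidase of vessel walls, had 8.17, 6.09 and 8.48 in TLS, against 5.47, 6.23 and 7.62 in PRIMARY, and was called only without TLS repeat 2, at 3.7-fold (adjusted p = 0.0269). Sema3f, a guidance signal, Gimap6, a GTPase of lymphocytes and endothelium, and Pnliprp1 were called only then as well, at 3.28-fold for Sema3f, at least 3.04-fold for Gimap6, which 2 PRIMARY arrays detected, and 3.08-fold for Pnliprp1, and in all of them TLS repeat 2 was the lowest TLS array. Cnpy4, a relative of endoplasmic reticulum chaperones, had 7.05, 8.18 and 5.41 in TLS, against 7.79, 8.06 and 7.90 in PRIMARY, and was called lower only without TLS repeat 2.

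**Figure D5:**
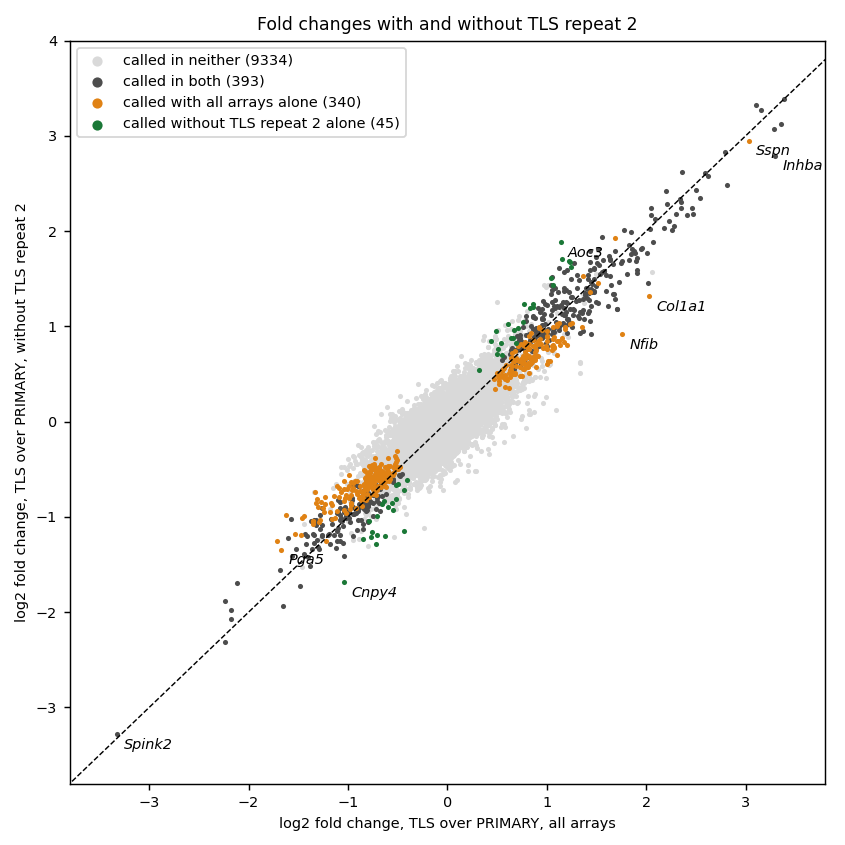
Log2 fold change of TLS over PRIMARY for each of 10112 genes with all arrays (x axis) and without TLS repeat 2 (y axis); colours give the calls, and the dashed line marks equal values. Of the 340 genes called with all arrays alone, 306 have a smaller fold change without TLS repeat 2, as Col1a1 and Nfib do. Picking genes that lose their call favours a smaller fold change, so the count only describes this set.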

How the data were processed

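Gene expression was measured on bead arrays with 25697 probes, 3 arrays for each of 7 stages, and samples were grouped by their titles. The signal intensity per probe, as deposited, is the average bead signal per the file headers and was neither background corrected nor normalized. The detection p-value beside it, per the file headers, tests that signal against the array's negative controls. A second deposited table holds the authors' log2 values, whose normalization and filter are not given in the sources used here, and it served as an alternative. The submitters' processing notes name limma without a version.

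Signals were background corrected and quantile normalized by neqc (limma 3.58.1, R 4.3.3), which adds an offset of 16 and takes log2. Probes with a detection p under 0.05 on at least 3 arrays were kept, and the brightest named probe stood for its gene, which gave 10112 genes. For 2 antral arrays that share a column name, 2 detection columns were not used, and each probe received the mean detection p of its signal rank on the other 19 arrays. In the model these 2 antral arrays bear on the contrasts only through the estimate of variance. They also took part in the normalization, the probe filter and the choice of the brightest probe. The antral means in the plot of levels by stage include them as well.

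All 21 arrays entered a single limma model of 7 stage means with moderated variances, two-sided tests and the Benjamini-Hochberg adjustment at 0.05 within a contrast. The fit was tested on simulated data in which a gene's spread was the same in every stage. The wider spread of the TLS arrays was not simulated. The number of arrays limits the precision. In fits without an array it was left out of the model only. Alternatives changed the arrays, background correction, normalization, source of values, filter, weights, variance, replicate block and probe rule. The comparison, gene lists and alternatives were chosen with earlier results of these data known. Of 697 memberships in 31 lists 521 were tested. Named genes were the 15 largest rises and falls called with and without TLS repeat 2, members of the lists, the 6 largest called in either fit alone, the 8 with the largest SD over TLS, the 8 farthest from the mean of PRIMARY and MLS, and the 6 brightest detected in 1 stage alone. Samples were not paired by repeat number in the model. Deviations of samples with the same number from their stage means correlated at 0.15, 0.01 and 0.00 across genes. With 3 arrays a stage, these values cannot show whether samples of the same number share an origin.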

Additional observations from a re-analysis of the deposited data

How the results depend on the processing

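The count of genes called between TLS and PRIMARY ranged from 381 to 1070 when 1 array was left out, against 733 with all arrays: 438 without TLS repeat 2, 381, 415 and 474 without PRIMARY repeats 2, 3 and 1, and 1070 without TLS repeat 3. With the variance taken from the 6 TLS and PRIMARY arrays alone it was 167, with 132 higher and 35 lower. In that fit 62 of the 171 named genes lost their call. Fewer residual degrees of freedom enter it, and the TLS arrays spread more than the PRIMARY arrays. The part of each in the lower count was not tested. The count was 582 without both TLS repeat 2 and PMD3 repeat 2, 1007 with median scaling, 758 with the authors' values and 665 with no filter. The count of genes called against the mean of PRIMARY and MLS, 46 with all arrays, ranged from 23 to 146 when 1 array was left out (24 without PRIMARY repeat 2 and 146 without TLS repeat 3). It was 17 with the authors' values, 27 with no filter and 15 with array weights; the cause was not tested. No value of it was computed with the variance of TLS and PRIMARY alone, since it needs MLS. The repeat number as a replicate block gave 759 and 41 calls, and no label states what samples of the same number share. Over 171 named genes and 16 settings, none that was called reversed; 302 fits lost a call and 54 gained one. Among alternatives chosen after seeing the data, the positions of the TLS arrays moved by less than their spread, and the counts of genes detected in 1 stage alone stayed within 1.5 times. With 3 arrays a stage, and signals near background for undetected probes, small changes and dim genes are the least certain.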
